A study of Mus musculus with 12 samples.

Results

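Transcripts of T cells and cytotoxic lymphocytes were followed in bulk RNA-seq of lung cells sorted for Pdgfra, the platelet-derived growth factor receptor alpha chain that marks lung fibroblasts. The 10 genes were Cd3d, Cd3e and Cd3g of the T cell receptor complex, the coreceptors Cd4 and Cd8a, and the cytotoxic genes Nkg7, Gzma, Gzmb, Prf1 and Klrb1c. They were chosen by name, as rows of the deposited tables carrying these symbols, and they are 10 of the 40760 genes listed, with each of the 10 above the filter on low counts. The study asked how loss of Pear1, a transmembrane receptor with EGF-like repeats, changes lung mesenchymal cells after bleomycin (bleo), a DNA-damaging drug that scars the lung. The 12 libraries, 3 in each of 4 groups, came from lungs of male mice: wild-type (WT) mice given vehicle, Pear1-/- mice given vehicle, WT mice given bleo and Pear1-/- mice given bleo. The study's methods give mice of a C57BL/6 background aged 8 to 12 weeks, bleo delivered into the trachea as an aerosol, and a knockout-first Pear1 allele present in every cell of the body rather than in fibroblasts alone. The bleo dose and the day of collection of these libraries were not given in the sources used here, and neither was the number of mice behind each library. Nothing states that replicates came from separate animals, so p-values measure only the spread between these libraries, which may be technical.

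A T cell recognises antigen through a receptor whose variable chains are carried to the surface by the CD3 subunits, and those subunits pass the signal into the cell. CD4 marks helper T cells and CD8 marks most T cells that kill, while natural killer (NK) cells kill without a rearranged receptor. Both kinds of killer store perforin and granzymes in granules, which they release onto a target cell. Fibroblasts do not form CD3 complexes or cytotoxic granules, and the method given for these libraries names only the Pdgfra stain. In its other flow cytometry the study defines Pdgfra+ mesenchymal cells as negative for CD45, CD31 and CD326, a gate that would remove lymphocytes, and whether it was applied to these libraries is not given in the sources used here. In bulk RNA, fewer cells of a type and less RNA per cell cannot be told apart, and that holds for every level given here.

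The cytotoxic genes lie apart in the genome, and their upstream sequences are shown because all 5 carry the letters of one lymphocyte motif. RUNX factors are transcription factors of killer lymphocytes, and their core motif TGTGGT, read on either strand, was present in the 250 bases upstream of the RefSeq start of Nkg7, Gzma, Gzmb, Prf1 and Klrb1c. It was present in none of the windows of Cd3d, Cd3e, Cd3g and Cd8a, so that 5 of the 9 genes with an entry held it, against 14.0% of all 32851 mouse promoters of the same length. Sequences are from RefSeq on GRCm38.p6, written 5′ to 3′ on the strand of the gene, with every RUNX core in capitals. The motifs were looked at with the sequences in view, and a match is a description of letters, not a bound site. The windows are Nkg7 at chr7:43436888-43437072 (+), Gzma at chr13:113100982-113101231 (-), Gzmb at chr14:56262335-56262584 (-), Prf1 at chr10:61297586-61297835 (+) and Klrb1c at chr6:128788642-128788891 (-).
Nkg7: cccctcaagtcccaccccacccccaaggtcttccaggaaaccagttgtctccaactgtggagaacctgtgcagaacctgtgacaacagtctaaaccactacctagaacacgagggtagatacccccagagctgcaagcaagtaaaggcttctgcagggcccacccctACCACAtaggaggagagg
Gzma: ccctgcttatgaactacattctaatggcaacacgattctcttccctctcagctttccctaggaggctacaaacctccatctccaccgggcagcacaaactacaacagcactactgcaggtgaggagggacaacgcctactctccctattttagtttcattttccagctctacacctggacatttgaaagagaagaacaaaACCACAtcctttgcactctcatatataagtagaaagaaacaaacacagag
Gzmb: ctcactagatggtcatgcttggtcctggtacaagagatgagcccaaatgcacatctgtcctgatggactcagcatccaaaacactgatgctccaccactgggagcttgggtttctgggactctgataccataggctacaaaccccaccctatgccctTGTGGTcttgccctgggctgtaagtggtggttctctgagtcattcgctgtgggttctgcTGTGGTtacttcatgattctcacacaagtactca
Prf1: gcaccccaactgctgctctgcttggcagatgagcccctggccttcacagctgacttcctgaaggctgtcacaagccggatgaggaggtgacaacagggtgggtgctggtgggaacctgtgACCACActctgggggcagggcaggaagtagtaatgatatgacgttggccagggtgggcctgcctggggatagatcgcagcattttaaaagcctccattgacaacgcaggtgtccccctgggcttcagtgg
Klrb1c: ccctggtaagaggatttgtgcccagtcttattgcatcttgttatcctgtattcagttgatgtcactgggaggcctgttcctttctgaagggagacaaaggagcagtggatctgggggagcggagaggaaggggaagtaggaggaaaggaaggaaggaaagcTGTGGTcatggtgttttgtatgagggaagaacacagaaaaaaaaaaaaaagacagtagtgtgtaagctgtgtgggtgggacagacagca
The Nkg7 window was shortened to 185 bases because its end lies in an annotated exon. The Klrb1c window lies inside the GENCODE span of the gene given below, so it is upstream by RefSeq only. Counted from the RefSeq start over the full 250 bases, the core stood 83 bases upstream in Nkg7, 50 in Gzma, 130 in Prf1 and 89 in Klrb1c. Gzmb held it at both 93 and 34. The GENCODE starts of Nkg7, Gzmb, Prf1 and Klrb1c differ from these RefSeq starts. Over the full 250 bases, a T-box motif, AGGTGT, was in 6 of the 9 genes (Cd3d, Cd3e, Cd3g, Nkg7, Gzma and Prf1) against 11.8% of all promoters. An ETS core, AGGAAG, was in 5 (Cd3d, Cd3e, Nkg7, Prf1 and Klrb1c) against 29.5%. An E-box, CAGGTG, was in 4 (Cd3d, Cd3g, Gzma and Prf1) against 17.2%, and it can overlap the T-box letters. The T-box and ETS letters of Nkg7 lie in its 65 exonic bases that are not shown.

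By the GENCODE M21 annotation of GRCm38, the CD3 genes sit side by side, Cd3g at chr9:44969572-44980431 (-), Cd3d at chr9:44981786-44987339 (+) and Cd3e at chr9:44998740-45009627 (-). Cd8a lies at chr6:71373427-71379173 (+), Cd4 at chr6:124864692-124888221 (-) and Klrb1c, which encodes the NK1.1 antigen of NK cells, at chr6:128778485-128789215 (-). The remaining cytotoxic genes lie at chr7:43437073-43438249 (+) for Nkg7, chr13:113093825-113100981 (-) for Gzma, chr14:56258838-56262260 (-) for Gzmb and chr10:61297833-61304680 (+) for Prf1. Klrb1c shares 413 exonic bases with Gm44511 on the same strand, so its counts are uncertain. Cd3e shares 135 exonic bases with the antisense gene Gm48719, and the kit does not mark strand.

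Total counts ran from 6702948 to 10447101 per library, and 3 counts, taken as the lowest readable level, equalled 0.287 to 0.448 CPM (counts scaled to the library total). WT vehicle replicate 2 stood apart. A chi-square of the counts, per degree of freedom, was 21.2 to 21.8 between it and the other WT vehicle libraries, 1.35 to 4.82 between replicates elsewhere, and 1.73 to 2.67 between it and the Pear1-/- vehicle libraries. Its label is thus in doubt; it was used as given, and whether it was exchanged with another was not tested. Counts called at an adjusted p below 0.05 that rest on it are given with and without it for the 10 genes, the related lists and the markers of other cells. Counts with a fold change above 2 and counts of groups without overlap include it. So do the group means, sums and ratios, and the values of single related genes and markers. Pear1 itself had 576, 545 and 519 normalized counts in the WT vehicle libraries and 511, 501 and 547 in the libraries labelled Pear1-/- vehicle, and these ranges overlap. The Pear1 counts of the vehicle libraries thus do not check their genotype labels, and all genotype labels are used below as given. Pdgfra, the sort marker, was present in all groups, at 4565 ± 325, 4165 ± 39.1, 1360.1 ± 29.9 and 2392 ± 18.8 normalized counts (mean ± SD, n = 3) for WT and Pear1-/- with vehicle and then WT and Pear1-/- with bleo. The leukocyte gene Ptprc, which encodes CD45, was present as well, at 3303 ± 479, 3818 ± 263, 7616 ± 97.8 and 3365 ± 109 in the same order.

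**Figure D1:**
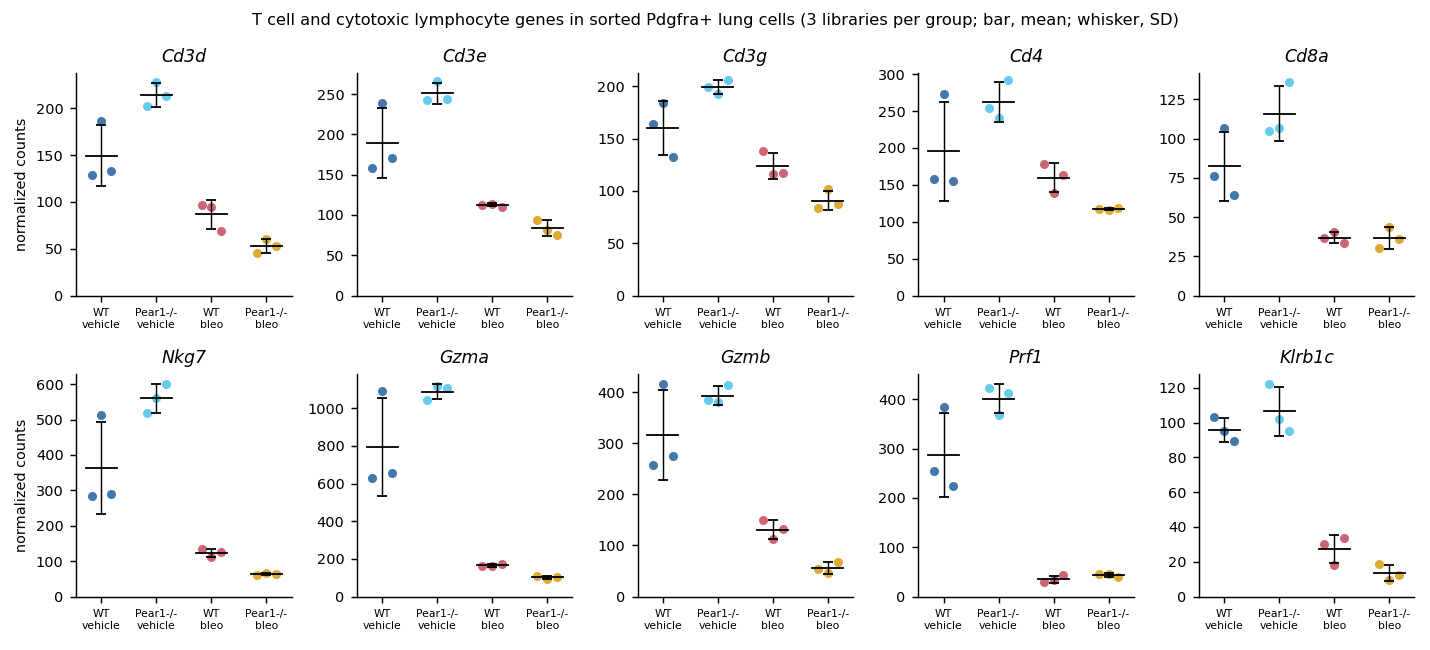
Normalized counts (y axis, linear from 0, counts divided by the library's size factor) of the 10 genes in each library, by group (x axis), with the mean as a bar and the SD as a whisker (n = 3). All 10 panels have their lowest group mean after bleo, and Gzma falls from 631 to 1118 in the vehicle libraries to 93.7 to 173 in the bleo libraries.

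Transcripts of the CD3 subunits were highest in Pear1-/- vehicle lungs and lowest in Pear1-/- bleo lungs. Cd3d, the delta chain, had 129, 187 and 133 normalized counts in the WT vehicle libraries, 203, 228 and 213 in Pear1-/- vehicle, 96.4, 94.8 and 68.8 in WT bleo and 45.3, 60.2 and 52.4 in Pear1-/- bleo. The 4 groups did not overlap, and WT vehicle replicate 2 was the highest of its group and nearest to the Pear1-/- vehicle libraries. Cd3e, the epsilon chain that pairs with both other subunits, had 159, 239 and 171 in WT vehicle and 242, 266 and 244 in Pear1-/- vehicle. With bleo it had 113, 114 and 110.3 in WT and 94.1, 81.7 and 75.3 in Pear1-/-, again with no overlap between any of the groups, although WT vehicle replicate 2 came within a few counts of Pear1-/- vehicle. Cd3g, the gamma chain, had 164, 184 and 133 in WT and 199.8, 193 and 206 in Pear1-/- with vehicle, then 138, 116 and 117 in WT and 83.5, 101 and 87.7 in Pear1-/- with bleo. Here one WT bleo library lay above the lowest WT vehicle library, so the WT groups overlapped, while the Pear1-/- groups were far apart.

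The coreceptors differed from each other after bleo. Cd4, the coreceptor for MHC class II, had 158, 273 and 156 normalized counts in WT and 254, 241 and 292 in Pear1-/- with vehicle, then 178, 139 and 163 in WT and 117, 116 and 118 in Pear1-/- with bleo. WT bleo and WT vehicle overlapped, with 1 high value, that of WT vehicle replicate 2, while the Pear1-/- bleo libraries lay below all others. Macrophages and other myeloid cells can also carry Cd4, so it is the least specific of the 10 genes. Cd8a, the alpha chain of the coreceptor for MHC class I, had 76.4, 107 and 64.1 in WT vehicle and 105, 107 and 136 in Pear1-/- vehicle. It had 36.7, 40.8 and 33.4 in WT bleo and 30.2, 43.8 and 36.2 in Pear1-/- bleo, and the genotypes overlapped with both treatments. Cd8a per 1000 Cd4 counts was 429 ± 49.4 in WT and 441 ± 26.1 in Pear1-/- with vehicle, then 235 ± 51.1 in WT and 314 ± 60.4 in Pear1-/- with bleo (SD, n = 3). Both bleo groups lay below both vehicle groups in that ratio, and the genotypes overlapped within each treatment. Cd8b1, the partner chain of Cd8a, fell with it, from 114 ± 45.5 to 34.9 ± 7.65 in WT (log2 fold change -1.71, adjusted p = 7.06e-06 by edgeR) and from 155 ± 5.53 to 30.3 ± 6.41 in Pear1-/- (-2.35, adjusted p = 1.31e-07).

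The cytotoxic genes had the widest range. Gzma, a tryptase stored in the granules of NK and T cells, had 631, 1094 and 656 normalized counts in WT and 1043, 1118 and 1106 in Pear1-/- with vehicle, then 164, 160.1 and 173 in WT and 107, 93.7 and 106 in Pear1-/- with bleo. All 6 vehicle libraries lay above all 6 bleo libraries, and the bleo groups did not overlap. Nkg7, a membrane protein of cytotoxic granules, had 285, 513 and 289.6 in WT vehicle and 518, 562 and 600.2 in Pear1-/- vehicle. After bleo it had 134, 112 and 127 in WT and 59.5, 66.2 and 63.9 in Pear1-/-, with no library shared between any of the groups' ranges.

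Gzmb, the granzyme that cleaves caspases, had 257, 417 and 275 normalized counts in WT and 385, 380.4 and 415 in Pear1-/- with vehicle, then 149.7, 112 and 132 in WT and 54.2, 46.4 and 68.6 in Pear1-/- with bleo. The bleo groups were separate, whereas the vehicle groups overlapped through WT vehicle replicate 2. Prf1, perforin, which opens the pore through which granzymes enter, had 255, 384 and 223 in WT vehicle and 423, 367 and 413 in Pear1-/- vehicle, and 30.3, 32.6 and 43.5 in WT bleo and 46.2, 46.4 and 40.0 in Pear1-/- bleo. The bleo groups overlapped, with the Pear1-/- mean the higher. Klrb1c had 103, 95.4 and 89.3 in WT and 122, 102 and 94.9 in Pear1-/- with vehicle, then 30.3, 18.4 and 33.4 in WT and 18.6, 9.46 and 12.4 in Pear1-/- with bleo. Its lowest values rest on few reads, with raw counts of 21, 11 and 13 in Pear1-/- bleo, and the bleo groups overlapped, from 18.4 in WT to 18.6 in Pear1-/-. The vehicle groups overlapped as well.

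Scaled to transcript length, Gzma, Nkg7 and Gzmb stood above the CD3 genes in every group. In WT vehicle, Gzma had 91.9 ± 22.3 CPM per kilobase of transcript (SD, n = 3), Nkg7 46.1 ± 12.6, Gzmb 25.7 ± 4.99 and Prf1 13.0 ± 2.76. Cd3d followed at 9.64 ± 1.30, then Cd3g at 5.76 ± 0.622, Cd4 at 5.64 ± 1.45 and Cd3e at 5.44 ± 0.808, and these last 3 did not differ beyond their spread. Klrb1c (3.84 ± 0.408) and Cd8a (2.65 ± 0.493) were lowest. The first 3 places were held by Gzma, Nkg7 and Gzmb in all 4 groups, at 18.5, 15.3 and 10.3 in WT bleo and 11.4, 7.72 and 4.39 in Pear1-/- bleo. Prf1 moved from rank 4 in both vehicle groups to rank 8 in both bleo groups, at 1.54 in WT and 1.91 in Pear1-/-, below all 3 CD3 genes and Cd4.

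Bleo against vehicle in WT lungs asked what injury did to these transcripts where Pear1 is intact. By edgeR's quasi-likelihood test with Benjamini-Hochberg adjustment over 17418 genes, 9 of the 10 genes were lower at an adjusted p below 0.05, where 36.5% of all genes tested were lower. Their median log2 fold change was -1.21, against -0.07 for all genes. Prf1 fell furthest, by a log2 fold change of -3.01 (SE 0.20, adjusted p = 4.21e-10), followed by Gzma at -2.25 (SE 0.18, adjusted p = 1.85e-07). Klrb1c changed by -1.79 (SE 0.22, adjusted p = 8.89e-07), Nkg7 by -1.54 (SE 0.19, adjusted p = 1.04e-05) and Gzmb by -1.26 (SE 0.17, adjusted p = 4.95e-06). The median of these 5 cytotoxic genes was -1.79, against -0.75 for the CD3 genes. Cd8a fell with a log2 fold change of -1.15 (SE 0.21, adjusted p = 9.83e-05), Cd3d of -0.78 (SE 0.16, adjusted p = 0.000337) and Cd3e of -0.75 (SE 0.14, adjusted p = 0.000119). Cd3g was lower by a smaller amount, -0.36 (SE 0.13, adjusted p = 0.0208), and lost its call without WT vehicle replicate 2 (log2 fold change -0.18, adjusted p = 0.230 by edgeR). Cd4 did not pass, at -0.29 (SE 0.18, adjusted p = 0.159), and stood at 0.11 without that library. With a fold change above 2 asked for as well, 6 of the 10 were called (the 5 cytotoxic genes and Cd8a), where 23.3% of all genes were. In 8 of the 10 genes (all but Cd3g and Cd4) every bleo library lay below every vehicle library, where 36.7% of all genes did. Without WT vehicle replicate 2, 8 of the 10 genes were called lower, with a median of -0.89, while 44.7% of all genes were called lower.

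Bleo against vehicle in Pear1-/- lungs gave lower values for all 10 genes, called in each, where 33.1% of all genes tested were called lower. The median log2 fold change was -2.41, against -0.05 for all genes, and no bleo library reached a vehicle library in any of the 10 (37.8% of all genes). Gzma changed by -3.41 (SE 0.19, adjusted p = 6.2e-09 by edgeR), Prf1 by -3.17 (SE 0.18, adjusted p = 1.01e-10), Nkg7 by -3.14 (SE 0.21, adjusted p = 1.67e-08), Klrb1c by -2.97 (SE 0.24, adjusted p = 3.51e-09) and Gzmb by -2.80 (SE 0.18, adjusted p = 1.12e-09). All 10 also passed a fold change above 2, as 19.3% of all genes did. The cytotoxic genes were again the ones that fell most, with a median of -3.14 against -1.58 for the CD3 genes. Cd3d fell by a log2 fold change of -2.02 (SE 0.16, adjusted p = 4.17e-09), Cd8a by -1.65 (SE 0.20, adjusted p = 9.77e-07) and Cd3e by -1.58 (SE 0.14, adjusted p = 1.33e-08). The smallest changes were those of Cd4, at -1.16 (SE 0.17, adjusted p = 2.42e-05), and Cd3g, at -1.13 (SE 0.13, adjusted p = 4.77e-07).

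**Figure D2:**
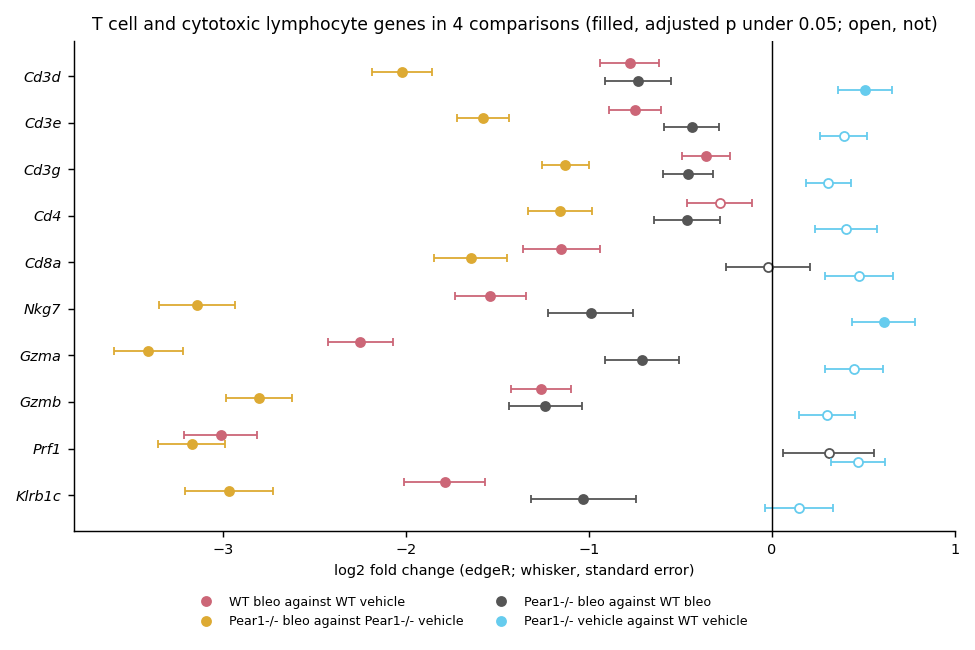
Log2 fold change (x axis) of each gene (y axis) in 4 comparisons, with the standard error as a whisker and filled points where the adjusted p was below 0.05 (edgeR). Points for bleo against vehicle lie left of 0 in both genotypes, those of Pear1-/- further left, and Prf1 and Cd8a are the only open points for Pear1-/- bleo against WT bleo.

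The fall after bleo was deeper in Pear1-/- than in WT for 8 of the 10 genes by the interaction term. In this term of the same fit, which subtracts the WT change from the Pear1-/- change, 8 of the 10 genes were negative at an adjusted p below 0.05, where 19.3% of all genes were. The median was -1.01, against -0.0012 for all genes. The values were -1.60 for Nkg7 (SE 0.29, adjusted p = 0.000731 by edgeR), -1.54 for Gzmb (SE 0.25, adjusted p = 0.000155), -1.24 for Cd3d (SE 0.23, adjusted p = 0.00038) and -1.18 for Klrb1c (SE 0.34, adjusted p = 0.0109). Gzma stood at -1.16 (adjusted p = 0.00373), Cd4 at -0.87 (adjusted p = 0.0109), Cd3e at -0.83 (adjusted p = 0.00302) and Cd3g at -0.77 (adjusted p = 0.00301). Cd8a, at -0.50 (SE 0.30, adjusted p = 0.203), and Prf1, at -0.16 (SE 0.29, adjusted p = 0.708), did not pass. The change differed by more than 2-fold in 5 of the called genes (Cd3d, Nkg7, Gzma, Gzmb and Klrb1c), where 6.98% of all genes did. Without WT vehicle replicate 2 all 10 genes passed, with a median of -1.27, and 26% of all genes were called negative.

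After bleo, Pear1-/- lungs had lower levels than WT lungs of 8 of the 10 genes, where 24% of all genes tested were lower. The median log2 fold change was -0.59, against -0.01 for all genes. Gzmb differed most, at -1.24 (SE 0.20, adjusted p = 8.19e-05 by edgeR), then Klrb1c at -1.03 (SE 0.29, adjusted p = 0.00616) and Nkg7 at -0.99 (SE 0.23, adjusted p = 0.00331). Cd3d was lower by a log2 fold change of -0.73 (SE 0.18, adjusted p = 0.00259) and Gzma by -0.71 (SE 0.20, adjusted p = 0.0121). Smaller differences were called in Cd3g, at -0.46 (SE 0.14, adjusted p = 0.0094), Cd3e, at -0.44 (SE 0.15, adjusted p = 0.0233), and Cd4, at -0.46 (SE 0.18, adjusted p = 0.0456). Cd8a, at -0.02 (SE 0.23, adjusted p = 0.966), and Prf1, at 0.31 (SE 0.25, adjusted p = 0.324), did not pass the test. A fold change above 2 was reached by 2 of the 8, Gzmb and Klrb1c, where 8.8% of all genes did. The groups were separate in 7 genes, lower in Pear1-/- in each, where 31.6% of all genes were. The Cd4 call was lost by DESeq2 (adjusted p = 0.103) and by limma (adjusted p = 0.1001), and leaving out single libraries left 5 or 6 of the 8 calls while 17.2% to 17.6% of all genes were called lower, 5 without WT bleo replicate 1, without WT bleo replicate 3 and without Pear1-/- bleo replicate 2.

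In vehicle-treated lungs all 10 genes had a higher mean in Pear1-/- than in WT, and 2 were called higher, Cd3d and Nkg7, where 1.95% of all genes tested were. The median log2 fold change was 0.43, against -0.00394 for all genes. Cd3d differed by 0.51 (SE 0.15, adjusted p = 0.0453 by edgeR) and Nkg7 by 0.61 (SE 0.17, adjusted p = 0.0491). The other 8 genes, which did not pass, ran from 0.15 for Klrb1c (adjusted p = 0.603) to 0.48 for Cd8a (adjusted p = 0.0947). Between them stood Gzmb at 0.30 (adjusted p = 0.180 by edgeR), Cd3g at 0.31 (adjusted p = 0.104), Cd3e at 0.39 (adjusted p = 0.0625), Cd4 at 0.41 (adjusted p = 0.114), Gzma at 0.45 (adjusted p = 0.0857) and Prf1 at 0.47 (adjusted p = 0.0578). Cd3d, Cd3e, Cd3g and Nkg7 had no overlap between the groups, 4 of the 10 genes against 8.28% of all genes. No called gene of the 10 exceeded a fold change of 2, as 0.0689% of all genes did. This comparison turned on WT vehicle replicate 2: without it 9 of the 10 genes were called higher, with a median of 0.78, and 25.5% of all genes were called higher. Without any other single vehicle library edgeR called 0 of the 10 and 0 of all genes, of which 2961 to 5876 had an unadjusted p below 0.05. The comparisons share groups (both bleo comparisons use the same vehicle libraries as this one) and are not independent of each other. The difference between the bleo changes of the genotypes was tested only by the interaction term.

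The balance between the cytotoxic and the CD3 transcripts shifted with bleo. Counts of the 5 cytotoxic genes per 1000 counts of Cd3d, Cd3e and Cd3g were 3671 ± 381 in WT and 3835 ± 142 in Pear1-/- with vehicle, then 1506 ± 191 in WT and 1237 ± 142 in Pear1-/- with bleo (SD, n = 3). Every bleo library lay below every vehicle library, and the genotypes overlapped within each treatment.

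**Figure D3:**
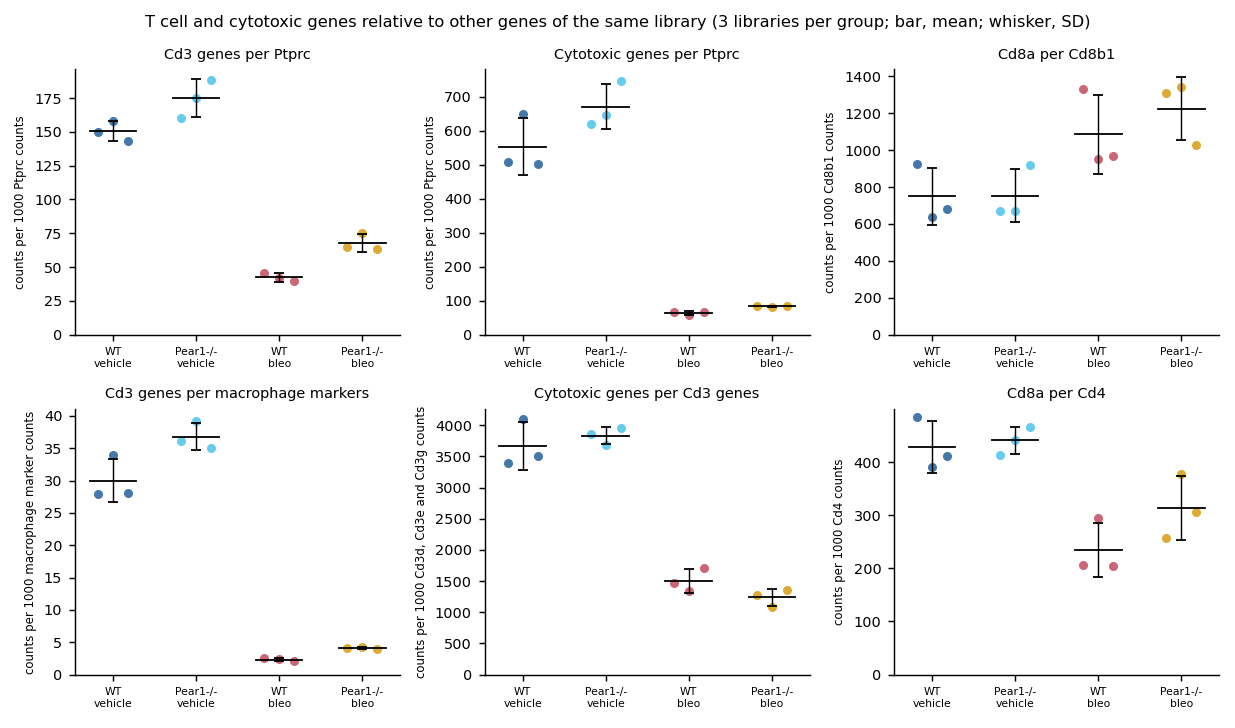
Ratios of counts per library (y axes, linear from 0, counts per 1000 counts of the denominator) by group (x axes), with the mean as a bar and the SD as a whisker (n = 3). Cytotoxic counts per CD3 counts fall from 3392 to 4105 in the vehicle libraries to 1078 to 1713 in the bleo libraries, while CD3 counts per Ptprc counts are higher in Pear1-/- bleo (63.3 to 75.0) than in WT bleo (39.3 to 45.8).

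Set against Ptprc, the order of the bleo groups turned. Ptprc rose with bleo in WT (log2 fold change 1.22, adjusted p = 2.21e-10 by edgeR) and not in Pear1-/- (-0.18, adjusted p = 0.0677), with an interaction of -1.40 (adjusted p = 3.8e-08), so a ratio to it carries that difference. CD3 counts per 1000 Ptprc counts were 150.5 ± 7.45 in WT and 175 ± 14.0 in Pear1-/- with vehicle, then 42.4 ± 3.25 in WT and 67.7 ± 6.44 in Pear1-/- with bleo (SD, n = 3). Cytotoxic counts per 1000 Ptprc counts were 554 ± 82.8, 671 ± 66.8, 63.6 ± 6.30 and 83.1 ± 2.26. Both ratios were higher in Pear1-/- bleo than in WT bleo with no overlap. Per 1000 counts of 6 B cell markers, CD3 counts were 48.1 ± 3.97 in WT bleo and 46.6 ± 2.94 in Pear1-/- bleo, and these overlapped. Per 1000 counts of 10 macrophage and monocyte genes they were 2.32 ± 0.184 and 4.06 ± 0.182, without overlap. The turn thus depended on the denominator. Gene by gene, 7 of the 10 were higher per Ptprc count in Pear1-/- bleo without overlap, which was near the background, since 79.8% of all genes were. Nkg7, Gzmb and Klrb1c were the 3 that overlapped. With bleo against vehicle, all 10 genes were lower per Ptprc count without overlap in both genotypes, where 82% of all genes were in WT and 29.9% in Pear1-/-. In Pear1-/- against WT vehicle, Cd3d alone of the 10 was higher per Ptprc count without overlap (2.52% of all genes).

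Markers of other cells moved with the treatment and the genotype. The summed level of the pan leukocyte list (Ptprc, Coro1a, Laptm5, Cd53 and Arhgdib) had a mean of 1408 CPM in WT and 1590.4 in Pear1-/- with vehicle, then 4002 in WT and 2078 in Pear1-/- with bleo. That of 10 macrophage and monocyte genes was 1951, 1935, 15633 and 6252 CPM, and Csf1r, the growth factor receptor of these cells, had log2 fold changes of 3.08 with bleo in WT and 1.74 in Pear1-/- (adjusted p = 1.24e-17 and 3.17e-14 by edgeR). Of the 10 macrophage and monocyte genes, 9 were called higher with bleo in each genotype, beside 31.4% of all genes in WT and 29.1% in Pear1-/-, and 9 also in WT without vehicle replicate 2 (31.7%). Of the 5 pan leukocyte genes, all 5 were called higher with bleo in WT, with and without that library. In Pear1-/- 3 of these 5 were called higher and 0 lower, beside the same shares of all genes. Cd79a, a chain of the B cell receptor, was not called with bleo in WT (0.29, adjusted p = 0.288 by edgeR) or in Pear1-/- (-0.55, adjusted p = 0.0586). The other 5 of 6 B cell markers were called higher in WT (list median 0.42, beside 31.4% of all genes). Without WT vehicle replicate 2 all 6 were called higher (median 0.76, beside 31.7%). In Pear1-/- 3 of the 6 were called lower and 0 higher (median -0.55, beside 33.1% of all genes lower). The 5 plasma cell markers summed to 12981, 17780.2, 1461 and 8841 CPM. Neutrophil markers summed to 543 to 1642 CPM in WT vehicle, with replicate 2 the highest, and to 1539 to 1888 in Pear1-/- vehicle. With bleo they summed to 176 to 190.3 in WT and 277 to 287 in Pear1-/-, and 4 of the 6 were called lower in each genotype, in the same direction as the CD3 and cytotoxic genes, beside 36.5% of all genes in WT and 33.1% in Pear1-/-. In WT without vehicle replicate 2, 4 were called lower and 2 higher (44.7% and 31.7% of all genes).

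The mesenchymal list, which includes Pdgfra and the collagens Col1a1 and Col1a2, summed to 14667, 14622, 9163 and 25132 CPM for WT and Pear1-/- with vehicle and then WT and Pear1-/- with bleo. Beside it the CD3 genes summed to 58.5, 71.2, 36.3 and 25.4 CPM, and the cytotoxic genes to 216, 273, 54.4 and 31.2 CPM. The high mesenchymal sum of Pear1-/- bleo did not hold across the list: with bleo in Pear1-/-, 3 of its 10 genes were called higher (Col1a1, Col1a2 and Pdgfrb) and 7 lower, with a median log2 fold change of -1.19 (29.1% higher and 33.1% lower of all genes). In WT 2 were called higher and 8 lower, with a median of -1.41 (31.4% and 36.5%). Pdgfra itself was lower with bleo in WT (-1.74, adjusted p = 4.53e-14 by edgeR) and in Pear1-/- (-0.80, adjusted p = 5.16e-09). The epithelial markers summed to 4794, 5587, 1389 and 632 CPM and the endothelial markers to 315, 324, 167 and 175 CPM. All 5 endothelial markers were called lower with bleo in both genotypes (36.5% of all genes in WT and 33.1% in Pear1-/-), and 4 of them in WT without vehicle replicate 2 (44.7%). The WT counts of the mesenchymal and epithelial lists were the same without that library. Of the 5 epithelial markers, 3 were called lower and 2 higher in WT (Epcam, 0.36, adjusted p = 0.0107, and Cdh1, 0.90, adjusted p = 2.45e-06, edgeR), and 4 lower and 1 higher in Pear1-/- (Cdh1, 1.26, adjusted p = 2.26e-08, edgeR). Of all genes 36.5% were lower and 31.4% higher in WT, and 33.1% lower and 29.1% higher in Pear1-/-. The part of these shifts in the results for the 10 genes was not tested.

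**Figure D4:**
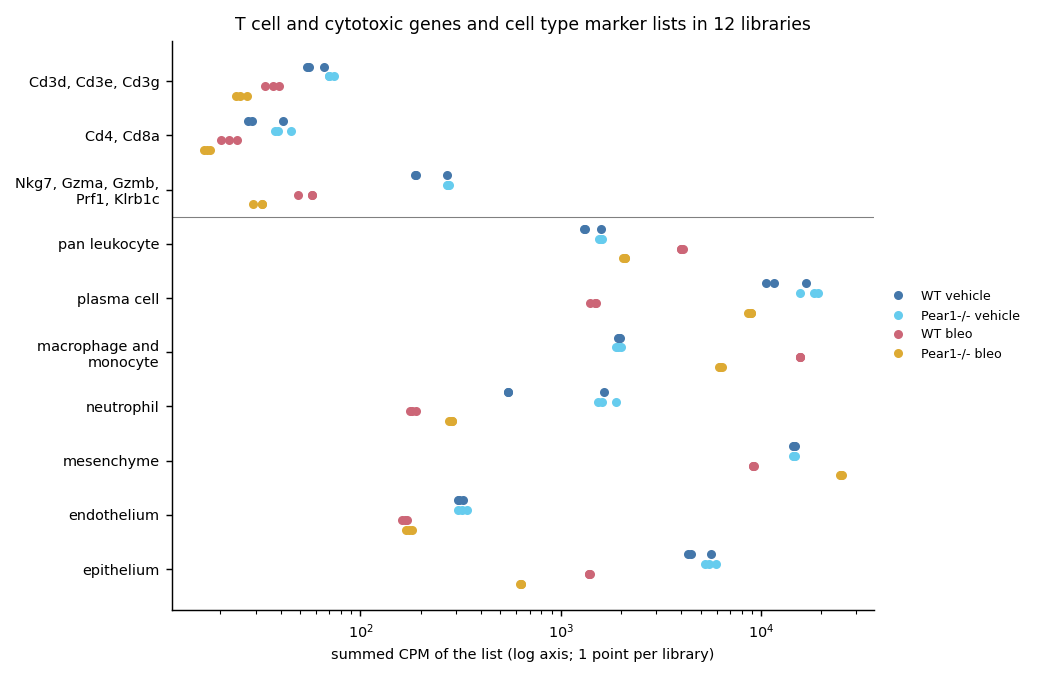
Summed CPM per library (x axis, log scale) of the 3 groups of lymphocyte genes and of marker lists of other cells (y axis), with 1 point per library coloured by group. Macrophage and monocyte markers rise from a mean of 1951 to 15633 CPM with bleo in WT, while the cytotoxic genes fall from 216 to 54.4.

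In a wider set of 83 genes linked to T and NK cells, some of them shared with other cells, more were lower than higher after bleo. In WT, 51 of the 83 were lower and 16 higher with bleo, with a median log2 fold change of -0.83, where 36.5% of all genes were lower and 31.4% higher. Without WT vehicle replicate 2 these became 46 lower and 19 higher, with a median of -0.58, beside 44.7% lower and 31.7% higher of all genes. In Pear1-/-, 65 were lower and 5 higher, with a median of -1.55 (33.1% and 29.1% of all genes). Pear1-/- bleo against WT bleo had 35 lower and 4 higher, with a median of -0.41 (24% and 22.1%). In vehicle lungs 10 of the 83 were higher and 1 lower in Pear1-/- (1.95% and 5.29% of all genes), with a median of 0.30, and without WT vehicle replicate 2 these counts became 54 and 4, with a median of 0.53, beside 25.5% higher and 29.7% lower of all genes. The lists and their members were drawn up with earlier results of these data known.

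Among 23 genes of T cell receptor chains and signalling, 18 were lower and 3 higher with bleo in WT (36.5% and 31.4% of all genes), and 20 lower and 1 higher in Pear1-/- (33.1% and 29.1%). Without WT vehicle replicate 2 the WT counts were 14 lower and 3 higher (44.7% and 31.7% of all genes). Trac, the constant part of the receptor's alpha chain, had 255 ± 28.6 normalized counts in WT and 327 ± 35.7 in Pear1-/- with vehicle, then 156 ± 11.9 in WT and 124 ± 7.99 in Pear1-/- with bleo (log2 fold change -0.70 in WT, adjusted p = 2.02e-05 by edgeR). The beta chain constant genes changed in WT by -0.83 for Trbc1 (adjusted p = 4.89e-05) and -0.97 for Trbc2 (adjusted p = 0.00109), and in Pear1-/- by -1.79 and -1.88 (adjusted p = 4.22e-09 and 2.74e-06). Cd247, the zeta chain, changed by -1.15 in WT (adjusted p = 1.51e-05) and -2.01 in Pear1-/- (adjusted p = 9.24e-09). Lck, the kinase that starts CD3 signalling, changed by -0.72 (adjusted p = 0.0332) and -1.96 (adjusted p = 0.000115), and Cd2, an adhesion receptor of T and NK cells, by -0.51 (adjusted p = 0.0152) and -1.59 (adjusted p = 1.1e-06). Cd28, the costimulatory receptor, fell in both genotypes (-2.15, adjusted p = 4.07e-11 in WT and -1.61, adjusted p = 1.33e-09 in Pear1-/-) and was higher in Pear1-/- bleo than in WT bleo (0.75, adjusted p = 0.000165), unlike the CD3 genes. Lcp2, an adaptor that myeloid cells also use, went the other way in WT, from 436 ± 69.1 to 1015 ± 25.1 (1.23, adjusted p = 7.49e-10).

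NK receptors, 18 in all, had 13 lower and 3 higher with bleo in WT (median log2 fold change -1.34, beside 36.5% lower and 31.4% higher of all genes) and 14 lower with none higher in Pear1-/- (median -2.65, beside 33.1% and 29.1%). The WT counts were again 13 and 3 without WT vehicle replicate 2, with a median of -1.004 (44.7% and 31.7% of all genes). Ncr1, the NK receptor NKp46, went from 139 ± 2.88 normalized counts in WT vehicle to 37.5 ± 4.91 in WT bleo (-1.88, adjusted p = 6.33e-09 by edgeR), and from 152 ± 19.9 to 28.9 ± 4.88 in Pear1-/- (-2.39, adjusted p = 3.23e-10). Its bleo groups were not called different between genotypes (-0.39, adjusted p = 0.115). Klrd1, the CD94 chain, changed by -0.55 in WT (adjusted p = 0.00663) and -1.02 in Pear1-/- (adjusted p = 1.81e-05). Il2rb, the beta chain of the receptor for interleukins that sustain NK and memory T cells, changed by -1.37 (adjusted p = 9.45e-07) and -2.06 (adjusted p = 9.12e-09). Klrk1, the activating receptor NKG2D, was not called in WT (-0.07, adjusted p = 0.608). Klrb1b, a paralog of Klrb1c, rose in WT from 132 ± 17.3 to 339 ± 13.2 (1.37, adjusted p = 1.02e-09) and stood at 135 ± 6.46 and 135 ± 4.40 in the Pear1-/- groups (0.01, adjusted p = 0.962).

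**Figure D5:**
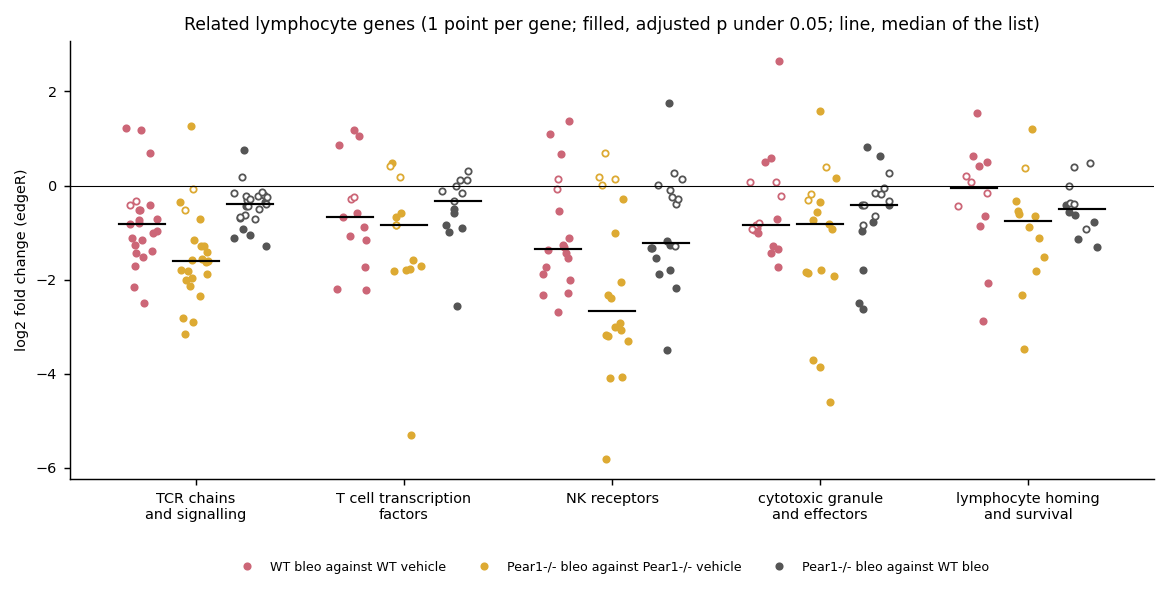
Log2 fold change (y axis) of each gene of 5 related lists (x axis), 83 genes in all, in 3 comparisons (colours), with a line at the median of each list and filled points where the adjusted p was below 0.05. NK receptors have the lowest medians, -1.34 with bleo in WT and -2.65 in Pear1-/-, and each list has single genes above 0 in WT.

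Of 17 cytotoxic granule and effector genes, 8 were lower and 3 higher with bleo in WT (36.5% and 31.4% of all genes), and 12 lower and 2 higher in Pear1-/- (33.1% and 29.1%). In WT without vehicle replicate 2, 8 were lower and 4 higher, beside 44.7% and 31.7% of all genes, and the share lower (47.1%) was thus near that of all genes. Ccl5, a chemokine of activated T and NK cells, went from 947 ± 143 to 503 ± 17.0 normalized counts in WT (-0.90, adjusted p = 8.15e-08 by edgeR) and from 1065 ± 46.9 to 295 ± 27.7 in Pear1-/- (-1.85, adjusted p = 5.3e-12). Ifng, interferon gamma, was low throughout, at 25.9 ± 8.81, 40.5 ± 3.25, 10.6 ± 4.57 and 2.99 ± 0.403 for WT and Pear1-/- with vehicle and then WT and Pear1-/- with bleo, and rested on 3 to 4 reads per library in the last. Gzmk, another granzyme, had group means of at most 13.2 and no call in any comparison. The genes of this list that rose were ones that myeloid cells share: Ctsc, the protease that activates granzymes and neutrophil proteases alike, went from 2172 ± 163 to 13574 ± 306 in WT (2.65, adjusted p = 5.25e-16) and from 2348 ± 229.6 to 7019 ± 92.7 in Pear1-/- (1.58, adjusted p = 1.08e-12). Lamp1, a lysosomal membrane protein, rose in WT by 0.58 (adjusted p = 2.63e-08) and in Pear1-/- by 0.15 (adjusted p = 0.0223), and Srgn, the proteoglycan core of granules, rose in WT by 0.50 (adjusted p = 0.0352) and stood at -0.18 in Pear1-/- (adjusted p = 0.418).

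T cell transcription factors, 13 in all, had 8 lower and 3 higher in WT (36.5% and 31.4% of all genes) and 9 lower and 1 higher in Pear1-/- (33.1% and 29.1%). The WT counts became 6 and 3 without WT vehicle replicate 2 (44.7% and 31.7% of all genes), and the share lower (46.2%) was thus near that of all genes. Tcf7, a factor of naive and memory T cells, changed by -1.15 in WT (adjusted p = 0.000111 by edgeR) and -1.79 in Pear1-/- (adjusted p = 1.2e-06), and Ets1, a lymphocyte factor of the ETS family, by -0.89 (adjusted p = 4.82e-08) and -1.76 (adjusted p = 4.08e-12). Runx3, a RUNX factor of CD8 T cells and NK cells, rose in both, by 1.19 in WT (adjusted p = 2.05e-10) and 0.49 in Pear1-/- (adjusted p = 5.03e-05), from 309 ± 19.7 to 699 ± 22.5 and from 282 ± 22.2 to 394 ± 15.0 normalized counts. Of 12 homing and survival genes, 4 were lower and 4 higher in WT, near the shares of all genes (36.5% and 31.4%), and 10 lower and 1 higher in Pear1-/- (33.1% and 29.1%). Their WT counts were 5 lower and 6 higher without WT vehicle replicate 2 (44.7% and 31.7% of all genes). S1pr1, the receptor that guides lymphocytes out of tissue and that endothelium also carries, changed by -0.85 in WT (adjusted p = 2.04e-07) and -1.11 in Pear1-/- (adjusted p = 6.56e-09).

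Over the 12 libraries the 10 genes rose and fell together. Pearson's r of log2 CPM ran from 0.791 (Cd4 with Prf1) to 0.988 (Nkg7 with Gzma) over the 45 pairs, with a median of 0.935. The points fall into 4 groups that differ in treatment, genotype and marker levels, so r describes the groups more than the libraries within them. Among 13804 genes with enough counts, those most like the CD3 genes included the NK receptor gene Klrc2 (r = 0.9917), Trbc1 (0.9915), Itgb7 (0.9908), an integrin chain of lymphocytes, and Icam1 (0.9905), an adhesion ligand. The genes most like the cytotoxic group were Il11ra1 (0.9962), an interleukin-11 receptor chain, Scgb1a1 (0.9960), the secretoglobin of club cells, Pi16 (0.9958), a marker of adventitial fibroblasts, Antxr2 (0.9952) and the matrix gene Fbln1 (0.9948). None of these last 5 is a lymphocyte gene, so at 12 libraries in 4 groups a high r did not single out the cell type.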

How the data were processed

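The deposited tables held raw read counts per gene and a signal table of normalized values for 12 bulk libraries, made by the authors with SMART-Seq v4 from TRIzol RNA and aligned with HISAT2 version 2.1 to GRCm38/mm10, per the study's methods. The counting program is not given in the sources used here. The deposited signal values equalled the counts divided by DESeq2 size factors (largest relative difference 4.94e-10), and they are called normalized counts. Groups and replicate numbers came from the sample titles.

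Of 40760 genes, 17418 passed edgeR's filter on low counts. Counts were tested with edgeR 4.0.16 (R 4.3.3; TMM scaling, robust quasi-likelihood fit over all 4 groups, no covariate, contrasts for each comparison), with Benjamini-Hochberg adjustment and a threshold of 0.05. Fold changes are log2 with their standard errors. The code was tested on simulated data. Alternatives were DESeq2 1.42.0, limma 3.58.1 on log2 of the normalized values plus 1, other scalings, no filter, fewer groups, a replicate block, single libraries left out and, added after seeing the data, a fit without robust dispersion. Replicate numbers did not pair the libraries: 0 of 18 same-numbered pairs deviated together with a correlation over 0.1 (-0.161 to 0.0997).

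All 10 genes were named in every comparison. From each related list, up to 4 genes of highest mean CPM were named, and Cd247, Trac, Trbc1, Trbc2, Cd8b1, Ncr1, Klrd1, Gzmk, Ifng and Ccl5 by name. Genes most alike were the 5 of highest Pearson r of log2 CPM with the mean z-score of each group of members. Some genes that these rules name are not reported here. The members and lists were chosen with earlier results of these data known. Of 9 promoters taken from RefSeq, 250 bases upstream of the start were searched. Depth limits precision for Klrb1c, Gzmk and Ifng. The SDs and standard errors include the spread between these libraries, which may be technical, and the floor of 3 counts covers counting error only.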

Additional observations from a re-analysis of the deposited data

Results flagged for a closer look

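Bleo changed 8 of the 10 genes differently in Pear1-/- and WT lungs by the interaction term of the edgeR fit, negative in each, where 19.3% of all genes were called negative. The Pear1-/- change minus the WT change, on the log2 scale, was -1.24 for Cd3d, -0.83 for Cd3e, -0.77 for Cd3g and -0.87 for Cd4. It was -1.60 for Nkg7, -1.16 for Gzma, -1.54 for Gzmb and -1.18 for Klrb1c. All 8 values were negative in every alternative tried. With bleo all 8 were called lower in Pear1-/- than in WT. With vehicle 2 of the 8 (Cd3d and Nkg7) were called higher in Pear1-/- and the other 6 did not pass. These comparisons share libraries with the interaction and are no separate test of it. Of all genes 24% were called lower with bleo and 1.95% higher with vehicle in those comparisons. Leaving out 1 library left 5 or 6 of the 10 genes called with bleo (17.2% to 17.6% of all genes lower). It moved the vehicle count to 0 (0% of all genes higher), or to 9 without WT vehicle replicate 2 (25.5% of all genes higher). The Pear1-/- bleo libraries also had a higher summed level of mesenchymal markers than WT bleo (25132 against 9163 CPM, with 5 of the 10 genes called higher and 1 lower, beside 22.1% and 24% of all genes) and a lower one of pan leukocyte markers (2078 against 4002 CPM, all 5 genes called lower), and the part of these in the interaction was not tested.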

How the results depend on the processing

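The fall after bleo was called in 8 to 10 of the 10 genes in WT (32.7% to 44.7% of all genes lower) and in 10 in Pear1-/- (20.2% to 35.5%) under every alternative but that of fold size. Leaving out single libraries gave 8 to 10 calls for bleo in WT (34.2% to 44.7% of all genes lower), 10 in Pear1-/- (29% to 30.6%), 5 to 6 for Pear1-/- bleo against WT bleo (17.2% to 17.6%), 0 to 9 for Pear1-/- vehicle against WT vehicle (0% to 25.5% higher) and 8 to 10 for the interaction (14.6% to 26% lower). A fold change above 2 as well left 6 calls in WT (23.3% of all genes), 10 in Pear1-/- (19.3%), 2 for Pear1-/- bleo against WT bleo (8.8%), 0 in vehicle (0.0689%) and 5 for the interaction (6.98%). The vehicle count of 2 (1.95% of all genes higher) became 1 with DESeq2 size factors (1.95%), 1 with library totals only (0.798%), 1 without robust dispersion (0.855%) and 9 without the filter on low counts (5.6%). It became 0 by DESeq2 (6022 of all genes had an unadjusted p below 0.05), by limma (4906) and with only the groups compared (3189). The cause of these moves was not tested.

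Signs turned for Cd4 with bleo in WT (0.11 without WT vehicle replicate 2; range -0.42 to 0.11 over single libraries left out) and for Cd8a in Pear1-/- bleo against WT bleo (0.04 without WT bleo replicate 2 and 0.093 without Pear1-/- bleo replicate 1; range -0.18 to 0.093), neither called. Library totals only shifted the median of all genes by -0.147 in the vehicle comparison and 0.151 in the interaction, and the share of higher genes among those called went from 27.0% to 6.35% and from 48.1% to 61.9%; no member changed sign. With the replicate number as a block the counts were 9, 10, 7, 2 and 8 in the same order (35.9%, 32.7% and 23.4% of all genes lower, 2.4% higher and 18.7% lower), and Cd4 lost its call in Pear1-/- bleo against WT bleo (adjusted p = 0.0647, edgeR), but the numbers do not pair the libraries. Over all values 685 kept their direction and side of the threshold, 44 lost a call, 18 gained one and 3 turned sign.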

Other observations

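Within the related lists, some T cell genes rose with bleo while the CD3 genes fell (these were chosen after their values were seen). In WT, Pdcd1, the inhibitory receptor PD-1, changed by a log2 fold change of 1.19 (adjusted p = 2.17e-05 by edgeR), Cxcr3, a chemokine receptor of effector T cells, by 1.53 (adjusted p = 4.66e-06) and Foxp3, the factor of regulatory T cells, by 0.86 (adjusted p = 0.00318). In Pear1-/- the same genes stood at 1.27 for Pdcd1 (adjusted p = 1.36e-05), 0.38 for Cxcr3 (adjusted p = 0.102) and 0.41 for Foxp3 (adjusted p = 0.111).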
